A study of Mus musculus with 13 samples.

Results

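The genes described here are the amino acid transporters and their close relatives in the solute carrier families Slc1, Slc3, Slc6, Slc7, Slc36, Slc38 and Slc43, measured in mouse embryonic fibroblasts, induced pluripotent stem (iPS) clones and embryonic stem (ES) cells. Rows of the deposited table were taken where the array annotation gave 1 gene symbol of these families. This gave 55 genes of the 14807 genes with such a row, and each of the 55 sat on 1 row. The choice used names alone and no measured value. One Slc38 gene was left out, and a gene whose row carries several symbols, such as Slc1a2, does not enter.

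RNA of 13 samples was hybridised to Affymetrix Mouse Exon 1.0 ST arrays. The 7 lines were iPS clones 1, 2, 5 and 6, embryonic fibroblasts (MEF) and the ES lines MPSVII ES and B6 Blu ES, with 2 arrays each except B6 Blu ES, which has 1. Each clone is a single picked colony made from fibroblasts with a lentivirus named OSK and expanded on a feeder layer of MEF. MPSVII stands for a mouse model of a lysosomal storage disease, mucopolysaccharidosis type VII. The titles give it for the clones, the fibroblasts and one of the ES lines, but other label fields describe the clones and fibroblasts as wildtype B6, and the titles are followed here. The strain is given as C57Bl/6 for all lines but B6 Blu ES, which is C57BL/6NTac. The labels do not say whether the arrays of a line came from separate cultures, so a p-value here measures the spread between arrays, which may be technical. Values are log2 RMA signal. A row's signal also depends on its probes, so levels are compared between lines for 1 gene at a time and never between genes.

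Amino acids cross membranes through carriers that exchange one amino acid for another or are driven by sodium or proton gradients. Some Slc7 proteins reach the cell surface only when bound to an Slc3 glycoprotein, the heavy chain of the pair, while others, the cationic amino acid transporters, work alone. Amino acid supply feeds protein synthesis, one-carbon metabolism and the kinase complex mTORC1, and mouse pluripotent cells are known for a high demand for threonine and glutamine.

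The lines carried the markers of their labels, with 1 exception in the fibroblasts. The mean log2 signal of 11 pluripotency genes lay between 3.62 and 3.63 on the MEF arrays, between 7.68 and 8.03 in clones 1, 5 and 6, between 6.99 and 7.15 in clone 2, between 8.13 and 8.21 in MPSVII ES and at 7.46 in B6 Blu ES. The mean of 12 fibroblast genes was 7.93 to 8.40 in MEF, 4.55 to 5.40 in the clones, 4.78 to 4.90 in MPSVII ES and 5.86 in B6 Blu ES. Macrophage genes were also high in the fibroblast cultures: the mean of 13 was 8.56 to 8.84 in MEF, against 3.67 to 4.24 in the clones, 3.88 to 3.89 in MPSVII ES and 3.76 in B6 Blu ES, and all 13 were called lower in the clones. A log2 signal has no true 0, so none of these markers can be said to be absent. The MEF arrays also had the widest interquartile ranges over all rows, 2.83 and 2.41 log2 units, and clone 2 the narrowest, 1.88 and 1.70. Differences from MEF below move with the fibroblast and macrophage markers alike, and the part of either in any of them was not tested. In such cultures fewer cells of a type and less RNA per cell cannot be told apart.

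In the mean of the 4 clones against MEF, 14 of the 55 transporters were called, 6 higher and 8 lower. A call is an adjusted p under 0.05 from limma, Benjamini-Hochberg adjusted over all 16661 tested rows. Of all tested rows 34.8% were called, 7.78% higher and 27.0% lower, against 25.5% of the transporters, 10.9% higher and 14.5% lower. Their median difference was 0.00 log2 units, beside -0.09 over all rows. The arrays of both sides did not overlap for 7 transporters on the higher side (7.63% of all rows) and for 10 on the lower side (26.1%). The split depended on the scaling of the arrays: quantile normalization gave 14 higher and 6 lower, centring on array medians 16 and 6, and intensity-dependent loess 11 and 6, while the median of all rows moved to 0.11, 0.17 and 0.05. Calls over all 16661 rows shifted too, from 1297 higher and 4506 lower in the deposited values. They became 3333 and 3113, 3472 and 3613, and 2799 and 3837 under the 3 scalings. Of the 14 calls 12 were kept under each of these, and the other 2, Slc38a10 and Slc43a3, were lost under each. Transporters not called in the deposited values and higher under all 3 other scalings were Slc7a7, Slc7a10, Slc38a8 and Slc6a19. Against the same MEF arrays, MPSVII ES gave 12 calls, 5 higher and 7 lower (26.7% of all rows called, 6.70% higher and 20.0% lower). B6 Blu ES gave 9, 3 higher and 6 lower (21.3%, 3.30% and 18.0%). Quantile normalization, centring and loess turned these splits to 10 and 4, 8 and 6, and 8 and 6 in MPSVII ES, and to 7 and 5, 6 and 5, and 6 and 5 in B6 Blu ES. Over all rows MPSVII ES went from 1117 higher and 3335 lower to 2418 and 2503, 2043 and 2866, and 2010 and 3160. B6 Blu ES went from 549 and 3000 to 1846 and 2015, 1109 and 2689, and 1347 and 2666. These comparisons share the MEF arrays, so their likeness is no independent result.

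**Figure D1:**
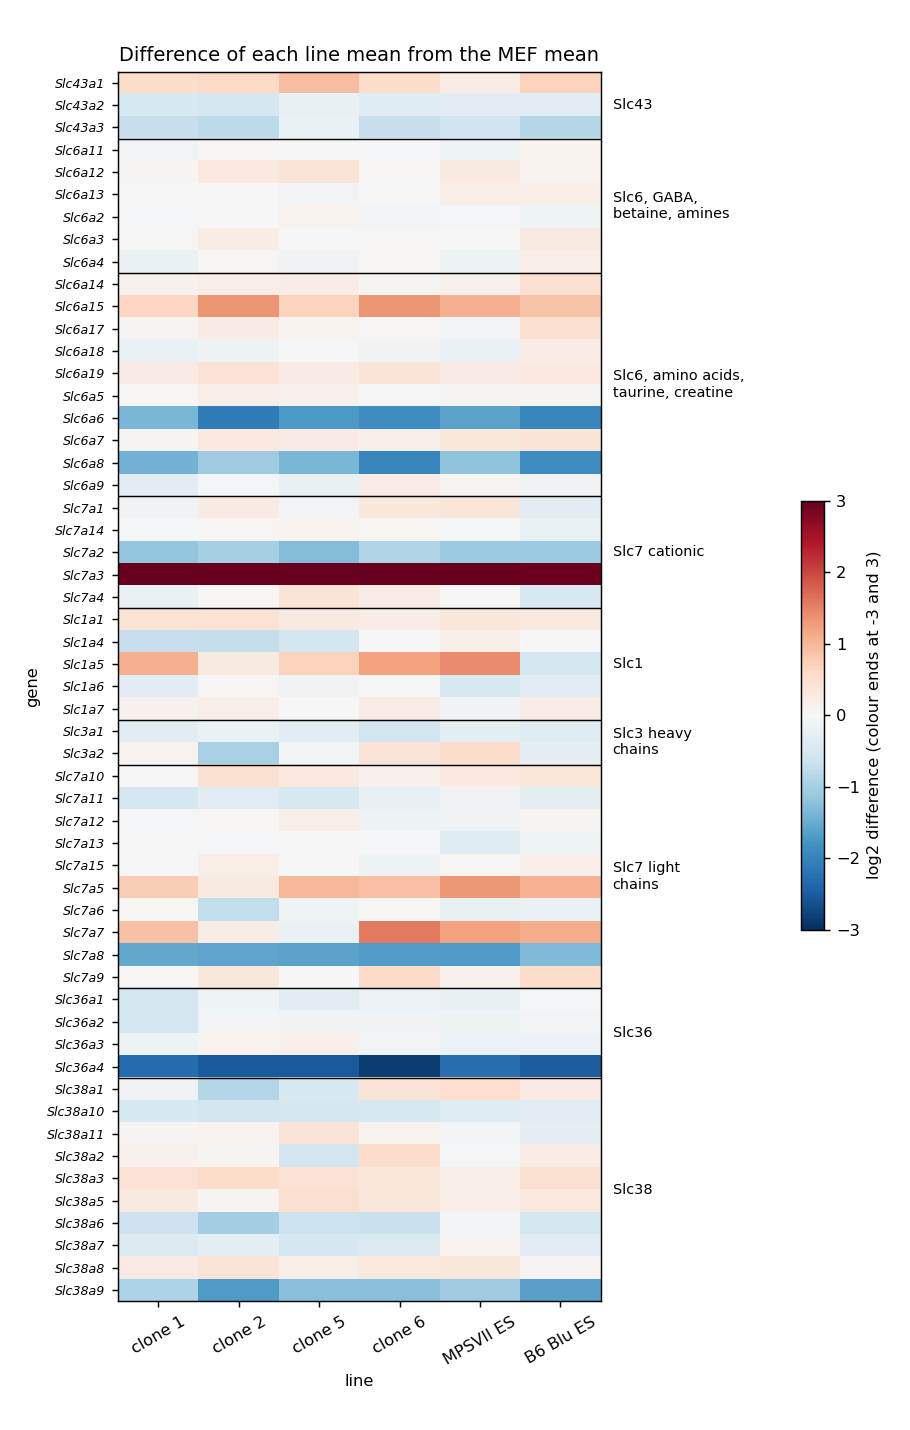
Difference of each line's mean from the MEF mean, in log2 units, for all 55 transporters (rows, grouped by role) and the 6 pluripotent lines (columns). Red is higher and blue lower than MEF, with colours ending at -3 and 3. Slc7a3 is the darkest red in each column and Slc36a4 is blue in each, and most other genes are pale.

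Among the cationic amino acid transporters, which carry arginine, lysine and ornithine, one gene was high in all pluripotent lines and another was high in MEF. Slc7a3 read 4.14 and 3.85 log2 units on the MEF arrays. In the clones it read 7.12 and 7.64 (clone 1), 8.78 and 8.07 (clone 2), 7.42 and 6.76 (clone 5) and 7.39 and 8.43 (clone 6). MPSVII ES gave 7.45 and 7.81, and B6 Blu ES 6.93. Every pluripotent array thus lay above both MEF arrays, and the clone arrays spanned those of MPSVII ES. The difference from MEF was 3.71 ± 0.30 log2 units (limma's standard error) for the clones, with an adjusted p of 3.3e-06. It was 3.64 ± 0.38 for MPSVII ES (adjusted p = 3.88e-05) and 2.93 ± 0.46 for B6 Blu ES (adjusted p = 0.00118). Taken singly, clones 1, 2, 5 and 6 exceeded MEF by 3.39, 4.43, 3.09 and 3.92. No other transporter differed from MEF by as much in either direction in these comparisons.

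Slc7a2, a cationic carrier known for supplying arginine to macrophages, ran the other way. MEF read 4.78 and 4.59, the clone arrays had a lowest, median and highest value of 3.05, 3.59 and 4.04, MPSVII ES read 3.53 and 3.63, and B6 Blu ES 3.56. The groups did not overlap. The difference from MEF was -1.10 ± 0.19 in the clones (adjusted p = 0.000942), -1.10 ± 0.24 in MPSVII ES (0.00588) and -1.12 ± 0.30 in B6 Blu ES (0.0206). The broadly expressed arginine carrier Slc7a1 was not called in the deposited values, with 4.93 and 4.69 in MEF, 4.58 to 5.57 in the clones, 5.28 and 5.08 in MPSVII ES and 4.50 in B6 Blu ES. Its clone difference from MEF was 0.10 log2 units (adjusted p = 0.80), and 0.53 (0.0248) and 0.46 (0.0494) under quantile normalization and loess, where it was called. Slc7a4 and Slc7a14, the remaining genes of the group, were not called either.

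The heavy chains of the glycoprotein-linked transporters come first. Slc3a2 encodes the heavy chain of the widespread pairs, and Slc3a1 that of the kidney and gut cystine transporter. Slc3a2 read 7.23 and 6.72 in MEF, 7.53 and 7.47 in MPSVII ES and 6.69 in B6 Blu ES. Its clone arrays read 6.97 and 7.21, 6.22 and 5.77, 7.12 and 6.67, and 7.01 and 7.70 for clones 1, 2, 5 and 6, with clone 2 below all other arrays. The mean of the clones was -0.14 log2 units from MEF (adjusted p = 0.698), but 0.51 and called higher under quantile normalization (0.0115). MPSVII ES was 0.52 above MEF and not called (0.237), but called under each of the other scalings, at 1.14 (0.00054), 0.73 (0.0432) and 0.73 (0.0105) with quantile normalization, centring and loess. Slc3a1 was not called in the deposited values.

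Slc7a5 encodes the light chain of the large neutral amino acid exchanger, which brings in leucine, and it was called higher in the mean of the clones and in both ES lines. MEF read 5.57 and 5.48. The clones read 6.46 and 6.07, 5.95 and 5.63, 6.55 and 6.47, and 6.17 and 6.70, MPSVII ES 6.95 and 6.71, and B6 Blu ES 6.57. All 11 pluripotent arrays lay above MEF, with the second array of clone 2 nearest to it. The difference was 0.72 ± 0.18 in the clones (adjusted p = 0.00968), 1.30 ± 0.23 in MPSVII ES (0.00157) and 1.04 ± 0.28 in B6 Blu ES (0.0237). Without MEF replicate 1 or MEF replicate 2 the clone difference was 0.77 (adjusted p = 0.0552) or 0.68 (0.0738) and no longer called, and the same held for B6 Blu ES.

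Slc7a8, whose light chain forms a neutral amino acid exchanger with a different tissue range, was low in pluripotent cells. Its highest line mean was 4.56, in MEF, under the threshold of 5 used to filter dim rows. MEF read 5.25 and 3.87, the clones had a lowest, median and highest value of 2.72, 2.94 and 3.10, MPSVII ES read 2.90 and 2.83 and B6 Blu ES 3.22. All pluripotent arrays lay below MEF, and the clones differed from each other by at most 0.12 in their means. The difference was -1.60 ± 0.28 in the clones (adjusted p = 0.000938) and -1.69 ± 0.35 in MPSVII ES (0.0044), while B6 Blu ES missed the threshold at -1.34 (0.0516). The size rests on MEF replicate 1: without it the clone difference was -0.91 (adjusted p = 0.00857) and the MPSVII ES difference -0.999 (0.0139). Slc7a7, which exports cationic in exchange for neutral amino acids, was called higher in MPSVII ES by 1.21 ± 0.32 (adjusted p = 0.0169), but not when MEF replicate 2 or either MPSVII ES array was left out. In B6 Blu ES Slc7a7 was not called in the deposited values, but was called higher under each of the other scalings, at 1.33 to 1.79. Its clones differed from each other and are described further below. The cystine-glutamate exchanger light chain Slc7a11 read 3.41 and 2.82 in MEF and 2.51 to 3.11 in the clones and was not called. In the deposited values, of the 10 light chains 1 was higher and 1 lower in the clones, 2 and 1 in MPSVII ES, and 1 and 0 in B6 Blu ES. The other scalings called further light chains higher. These were Slc7a7 and Slc7a10 in the clones and Slc7a10 in MPSVII ES under all 3, and Slc7a9 in the clones and B6 Blu ES under centring. Among all tested rows in the deposited values the calls upward made up 7.78%, 6.70% and 3.30% in these comparisons, and those downward 27.0%, 20.0% and 18.0%. Whether the light chains depart from these shares was not tested.

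The promoters of Slc7a7 and Slc3a2, the genes called among the clones in the deposited values, are shown with that of Slc7a11. Many amino acid transporter genes are known to carry the CARE element, which the starvation factor ATF4 binds. Its core was searched as TGATGNAA, or TTNCATCA on the other strand, in the RefSeq windows (GRCm38.p6) from 250 bases before to 50 after each start. Each line gives the 250 bases before the start, 5′ to 3′ on the gene's strand (minus for all 3), and capitals mark matches.
Slc7a7 (most upstream of its 5 windows), chr14:54417945-54418194: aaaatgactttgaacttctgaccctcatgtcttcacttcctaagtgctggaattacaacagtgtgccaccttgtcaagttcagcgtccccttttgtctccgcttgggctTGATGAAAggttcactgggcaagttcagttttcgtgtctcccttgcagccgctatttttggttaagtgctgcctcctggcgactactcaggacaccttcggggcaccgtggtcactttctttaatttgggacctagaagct
Slc3a2, chr19:8713898-8714147: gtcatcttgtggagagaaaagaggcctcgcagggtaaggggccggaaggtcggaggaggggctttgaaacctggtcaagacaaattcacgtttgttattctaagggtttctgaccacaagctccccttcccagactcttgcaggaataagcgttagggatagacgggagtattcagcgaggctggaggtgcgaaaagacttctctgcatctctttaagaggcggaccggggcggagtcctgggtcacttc
Slc7a11, chr3:50443614-50443863: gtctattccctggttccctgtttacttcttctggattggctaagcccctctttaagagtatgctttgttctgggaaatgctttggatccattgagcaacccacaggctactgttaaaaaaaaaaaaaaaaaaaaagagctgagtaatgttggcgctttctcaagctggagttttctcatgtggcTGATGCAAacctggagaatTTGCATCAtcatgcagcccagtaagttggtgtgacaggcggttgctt
The match of Slc7a7 begins 141 bases before the start, and a further match begins 1 base before it and runs past the printed stretch. Slc7a11 holds matches 66 and 47 bases before its start, on opposite strands. No match stands in the Slc3a2 window. Of the 55 transporters 38 had a window, and 3 of these, Slc7a7, Slc7a11 and Slc1a4, held a match, beside 4.51% of the 27025 genes with a window. A match is a stretch of letters and was not tested for binding, and Slc7a11 and Slc1a4 were not called in any comparison with MEF or MPSVII ES.

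**Figure D2:**
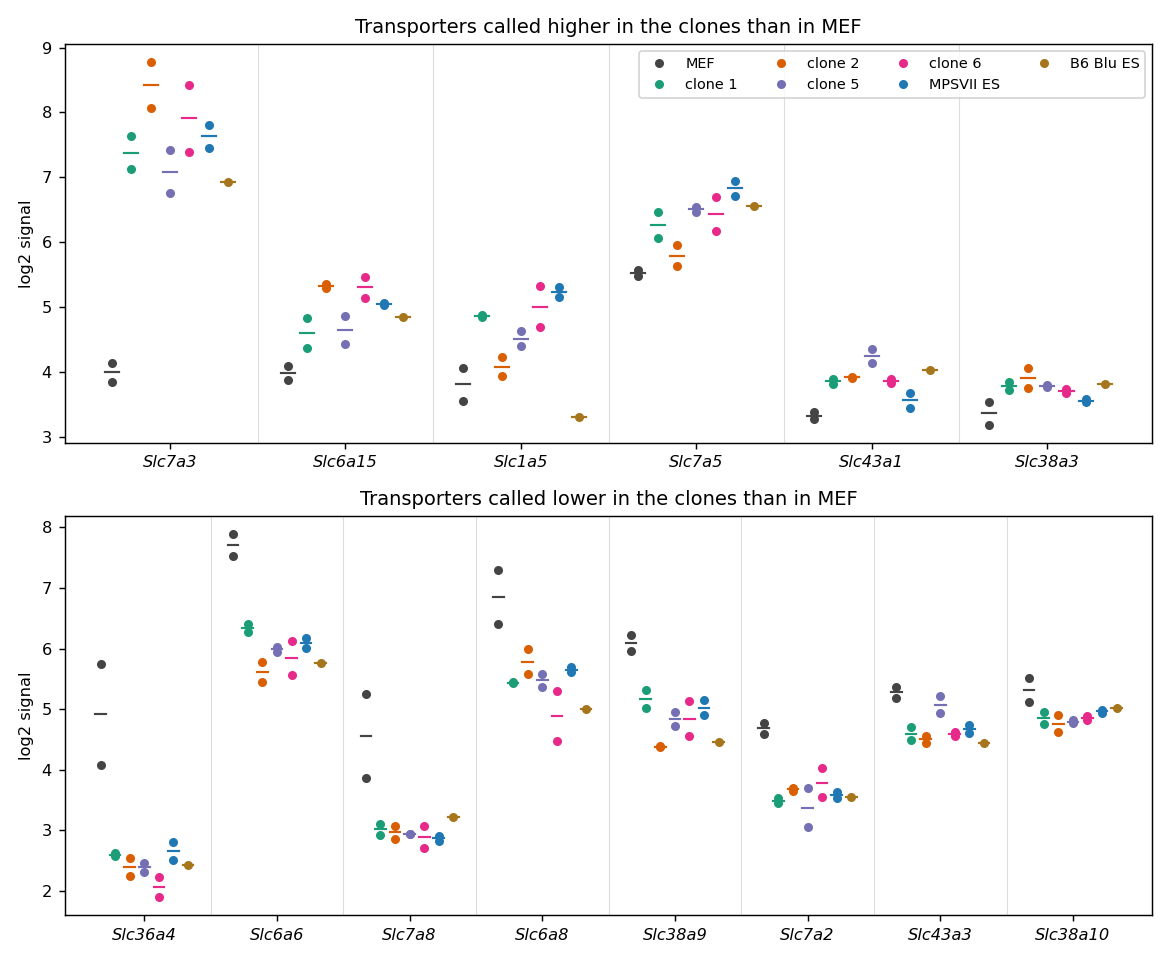
Log2 signal on each array (points) and line means (bars) for the 6 transporters called higher (upper panel) and the 8 called lower (lower panel) in the clones than in MEF. Slc7a3 shows the widest gap between MEF and the pluripotent lines, MEF points of Slc36a4 and Slc7a8 lie far apart from each other, and B6 Blu ES lies with MEF for Slc1a5.

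The Slc1 family holds glutamate carriers and neutral amino acid exchangers, and only its glutamine carrier, Slc1a5, was called among the 5 members measured. Slc1a5 read 4.07 and 3.55 in MEF, 4.88 and 4.85 in clone 1, 4.23 and 3.93 in clone 2, 4.63 and 4.39 in clone 5, 4.69 and 5.33 in clone 6, 5.31 and 5.16 in MPSVII ES, and 3.31 in B6 Blu ES. The second array of clone 2 overlapped MEF, and the B6 Blu ES array was the lowest of all. The difference from MEF was 0.81 ± 0.20 in the clones (adjusted p = 0.00869), and 0.55 and not called without MEF replicate 2. It was 1.43 ± 0.25 in MPSVII ES (0.00161) and -0.50 in B6 Blu ES (0.325). Slc1a4, the related carrier of alanine, serine and cysteine, read 4.30 and 3.34 in MEF and 2.87 to 3.88 in the clones, and its clone difference of -0.49 was not called (0.135). The glutamate carriers Slc1a1, Slc1a6 and Slc1a7 were not called, except Slc1a1 after median centring (0.60, 0.0154).

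The Slc38 carriers move small neutral amino acids, glutamine among them, with sodium. The largest difference in this family was that of Slc38a9, a lysosomal protein that signals arginine to mTORC1. MEF read 6.22 and 5.96, the clones had a lowest, median and highest value of 4.38, 4.84 and 5.32, MPSVII ES read 4.91 and 5.15, and B6 Blu ES 4.47. All pluripotent arrays lay below MEF. The difference was -1.28 ± 0.18 in the clones (adjusted p = 0.000234), -1.06 ± 0.23 in MPSVII ES (0.00556) and -1.63 ± 0.28 in B6 Blu ES (0.00214). Under quantile normalization the MPSVII ES difference lost its call, as it did without MPSVII ES replicate 1. Slc38a10 fell by 0.51 ± 0.15 on the log2 scale in the clones (adjusted p = 0.0256). Under quantile normalization its difference turned to 0.0351 log2 units and was not called. Without MEF replicate 1 it was -0.31 and not called (0.31), and the call was also lost without clone 1 replicate 1. Slc38a3, a glutamine carrier of liver and brain, was 0.44 ± 0.15 higher in the clones (0.0439) but passed the threshold in only 2 of 12 fits made without 1 array each. The plasma membrane glutamine carriers Slc38a1 and Slc38a2 were not called against MEF in the mean of the clones, though Slc38a2 was higher by 0.62 under quantile normalization (0.00606). In the ES lines neither was called in the deposited values. Quantile normalization called Slc38a1 higher in MPSVII ES by 1.06 (0.00152) and in B6 Blu ES by 1.12 (0.00545), and loess by 0.73 (0.012) and 0.77 (0.033). Slc38a2 was called under quantile normalization, at 0.55 (0.0434) and 1.01 (0.00841). Slc38a2, which cells raise when starved of amino acids, read 8.35 and 8.12 in MEF, 7.56 to 9.07 in the clones and 8.45 in B6 Blu ES, and the MPSVII ES arrays lay within the clone range.

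Of the 4 Slc36 carriers, known for moving small amino acids out of lysosomes or across the gut wall, Slc36a4 alone was called in the mean of the clones. Slc36a4, a carrier of proline and tryptophan, read 5.75 and 4.08 in MEF and at most 2.62 in the clones, with a lowest value of 1.90 and a median of 2.39. MPSVII ES read 2.52 and 2.81, and B6 Blu ES 2.42. The groups were well apart, but the MEF arrays differed from each other by 1.67 log2 units, the widest gap between replicates among all 55 transporters. The difference was -2.55 ± 0.33 in the clones (adjusted p = 0.000107), and -2.25 ± 0.41 in MPSVII ES (0.00196) and -2.50 ± 0.51 in B6 Blu ES (0.0051). Without MEF replicate 1 these were -1.72, -1.42 and -1.66, each still called. The pluripotent arrays read dim signals, and the gene was among the 41 transporters left out by the filter on dim rows, so no linear fold is given. Slc36a1, the lysosomal proton-coupled carrier, read 4.16 and 4.23 in MEF and 3.65 to 4.15 in the clones and was not called in the mean of the clones. In clone 1 its difference from MEF was -0.50 (0.0433), a call that stood in 2 of 12 fits made without 1 array each.

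The Slc43 family showed 1 gene up and 1 down. Slc43a1, a carrier of branched-chain amino acids, read 3.39 and 3.27 in MEF, 3.82 to 4.36 in the clones, 3.44 and 3.68 in MPSVII ES and 4.03 in B6 Blu ES. It was higher by 0.64 ± 0.14 in the clones (adjusted p = 0.00384) and by 0.70 ± 0.22 in B6 Blu ES (0.0424), the latter call standing in 2 of 12 fits made without 1 array each. The MPSVII ES difference of 0.23 was not called (0.417). Slc43a3, which carries purine bases rather than amino acids, was lower by 0.59, 0.60 and 0.85 log2 units in the clones, MPSVII ES and B6 Blu ES (adjusted p = 0.00803, 0.032 and 0.0206), and its clone arrays overlapped MEF. All 3 of these calls were lost under each of the other scalings.

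In the Slc6 family, whose members use sodium and chloride gradients, the clones read less than MEF for the taurine and the creatine carrier and more for 1 amino acid carrier. Slc6a6, the taurine transporter, read 7.88 and 7.52 in MEF and 6.40 and 6.28, 5.78 and 5.45, 6.03 and 5.95, and 5.57 and 6.12 in clones 1, 2, 5 and 6. MPSVII ES read 6.17 and 6.01, and B6 Blu ES 5.76, so all pluripotent arrays lay more than 1 log2 unit below MEF. The difference was -1.76 ± 0.18 in the clones (3.38-fold lower, adjusted p = 2.15e-05), -1.61 ± 0.23 in MPSVII ES (0.000357) and -1.95 ± 0.28 in B6 Blu ES (0.000672). Of all 55, its clone difference had the lowest p after that of Slc7a3.

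Slc6a8, the creatine transporter, read 7.30 and 6.40 in MEF, with a lowest, median and highest clone value of 4.48, 5.44 and 6.00. MPSVII ES read 5.61 and 5.70, and B6 Blu ES 5.00. All lay below MEF, and the difference was -1.46 ± 0.26 in the clones (adjusted p = 0.00106), -1.20 ± 0.33 in MPSVII ES (0.0189) and -1.85 ± 0.40 in B6 Blu ES (0.00719). Without MEF replicate 1 the clone difference was -1.01 (0.0315) and the MPSVII ES difference -0.75 and not called (0.171), and the latter also lost its call under quantile normalization. Slc6a15, a carrier of branched-chain amino acids and proline best known from neurons, read 4.10 and 3.88 in MEF and 4.38, 5.00 and 5.47 as the lowest, median and highest clone values. MPSVII ES read 5.06 and 5.04, and B6 Blu ES 4.84, all above MEF. It was higher by 0.98 ± 0.18 in the clones (0.00123) and by 1.06 ± 0.23 in MPSVII ES (0.00491), while B6 Blu ES missed the threshold at 0.85 (0.0513) but was called under the other scalings, at 1.06 to 1.17. The glycine carrier Slc6a9 and the others of the 10 amino acid, taurine and creatine carriers were not called in the deposited values, nor were any of the 6 carriers of GABA, betaine and monoamines, all of which lay between 2.58 and 4.31 on every clone array. Under median centring the dopamine carrier Slc6a3 was called higher in the clones by 0.35 (0.0414) and the betaine carrier Slc6a12 by 0.48 (0.0173). Quantile normalization also called Slc6a3 higher in the clones, by 0.30 (0.0485). Among the amino acid carriers, centring called Slc6a7 higher in the clones by 0.47 (0.0272) and in MPSVII ES by 0.55 (0.0468). Slc6a19 in the clones was called under all 3 other scalings, as given above.

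**Figure D3:**
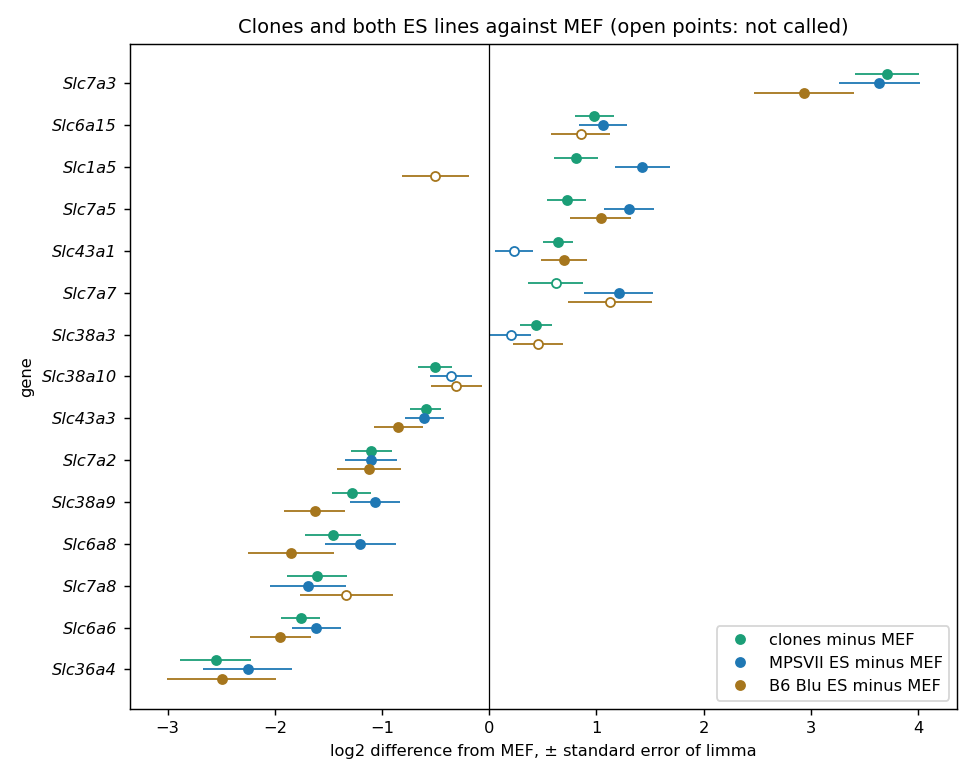
Log2 difference from MEF with limma's standard error for every transporter called in the clones, MPSVII ES or B6 Blu ES against MEF. Filled points were called and open points were not, and the 3 comparisons share the MEF arrays. Slc7a3 lies alone near 3 to 4, Slc36a4 near -2.5, and the points of the lines lie close together for most genes except Slc1a5, where B6 Blu ES lies at -0.50.

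The study's own question was how the clones compare with ES cells of the same model. In the mean of the 4 clones against MPSVII ES, 0 of the 55 transporters were called by limma, beside 1.04% of all rows. An unadjusted p under 0.05 was reached by 10. The share of all rows at that threshold was not counted, so the 10 cannot be set beside the 1.04%. Differences ran from -0.77 to 0.41 log2 units, and for 48 of the 55 the 95% interval stayed within 1 log2 unit of 0 on both sides. Slc38a7, a lysosomal glutamine carrier, had the lowest p at -0.50 ± 0.15, with an interval from -0.82 to -0.17 and an adjusted p of 0.167. Slc38a1 gave the lowest difference, -0.77 with an interval from -1.31 to -0.22 (0.201). After quantile normalization Slc38a1 (-0.66) and Slc3a2 (-0.62) were called lower, and after loess Slc38a1 (-0.65). For Slc7a3 the clones and MPSVII ES differed by 0.07 log2 units (0.969).

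Between the ES lines, 1 of the 55 was called, beside 0.204% of all rows. Slc1a5 read 5.31 and 5.16 in MPSVII ES against 3.31 on the B6 Blu ES array, a difference of 1.93 ± 0.31 log2 units (95% interval 1.24 to 2.62, adjusted p = 0.0436). With 1 array of B6 Blu ES the spread was borrowed from the lines with replicates, and the mean of its fibroblast markers was 5.86 against 4.78 to 4.90 in MPSVII ES. Of 12 fits made without 1 array each, 6 no longer called it, namely those without clone 1 replicate 1, clone 1 replicate 2, clone 5 replicate 1, clone 5 replicate 2, MPSVII ES replicate 1 or MPSVII ES replicate 2, though the difference stayed between 1.86 and 2.01.

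The clones differed from one another in 2 of the 55 transporters by limma's moderated F test, beside 9.01% of all rows. Slc7a7 read 5.88 and 6.18 in clone 1, 5.59 and 5.15 in clone 2, 5.24 and 4.62 in clone 5, and 6.24 and 7.17 in clone 6, against 5.31 and 4.97 in MEF, 6.31 and 6.39 in MPSVII ES and 6.27 in B6 Blu ES. Clone 6 lay above MEF, at 1.56 ± 0.32 (adjusted p = 0.00369), and the arrays of clone 5 overlapped those of MEF. In the promoter windows searched, Slc7a7 holds the CARE core and Slc3a2 does not, and sequence outside the windows was not searched. A part of the element in the clone differences was not tested. The Slc7a7 clone means spanned 1.77 log2 units (0.0231). The call was kept under all 3 other scalings and lost in 4 of 12 fits made without 1 array each, those without clone 1 replicate 2, clone 2 replicate 2, clone 5 replicate 2 or clone 6 replicate 2, and without clone 2 (0.0766). Slc3a2 spanned 1.36 log2 units (0.0451), with clone 2 lowest. Without clone 2 its span was 0.46, and its call was lost under quantile normalization (span 0.76, 0.0768) and loess (0.77, 0.104) and in 9 of 12 fits made without 1 array each.

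Against MEF, clones 1, 2, 5 and 6 gave 12, 14, 10 and 13 calls (28.0%, 32.8%, 29.4% and 28.0% of all rows). Clone 2 was the one clone with transporters called against MPSVII ES. In the deposited values these were 4 genes, all lower, beside 5.90% of all rows called and 5.30% called lower, while clones 1, 5 and 6 gave 0 of 55 each by limma (1.08%, 1.78% and 0.0480% of all rows), with 3, 6 and 5 at an unadjusted p under 0.05. For that unadjusted threshold the share of all rows was not counted. The heavy chain Slc3a2 was lower in clone 2 by 1.505 ± 0.29 log2 units (adjusted p = 0.018) and its leucine-carrying partner Slc7a5 by 1.04 ± 0.23 (0.0297). The glutamine carriers Slc38a1 and Slc1a5 were lower by 1.38 ± 0.31 (0.0304) and 1.15 ± 0.25 (0.029). Slc38a1 read 6.08 and 5.38 in clone 2 against 7.03 and 7.20 in MPSVII ES, 6.41 and 6.64 in clone 1, 6.42 and 5.85 in clone 5 and 6.68 and 7.31 in clone 6. Clone 2 also had the lowest pluripotency marker mean of the clones, 6.99 to 7.15, and the narrowest signal range, and the part of either was not tested. Under quantile normalization the Slc7a5 difference was -0.49 (0.234) and under loess -0.48 (0.287), while those of the other 3 stayed called at -0.85 to -1.04 under quantile normalization. Those scalings also called genes higher in clone 2 than in MPSVII ES: Slc7a3 by 1.18 (0.0278) and Slc6a15 by 0.74 (0.0481) under quantile normalization, and Slc7a3 by 1.32 (0.0258) under loess. Each of the 4 lower calls was lost without clone 2 replicate 2, MPSVII ES replicate 1 or MPSVII ES replicate 2. Against MEF, clone 2 was also called lower for Slc3a2 (-0.98), Slc7a6 (-0.73) and Slc38a1 (-0.88), and under quantile normalization Slc3a2 and Slc38a1 turned to 0.15 and 0.20. Without clone 2 replicate 2 or without MEF replicate 1 none of these 3 was called, and Slc38a1 was called in 5 of 12 fits made without 1 array each.

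**Figure D4:**
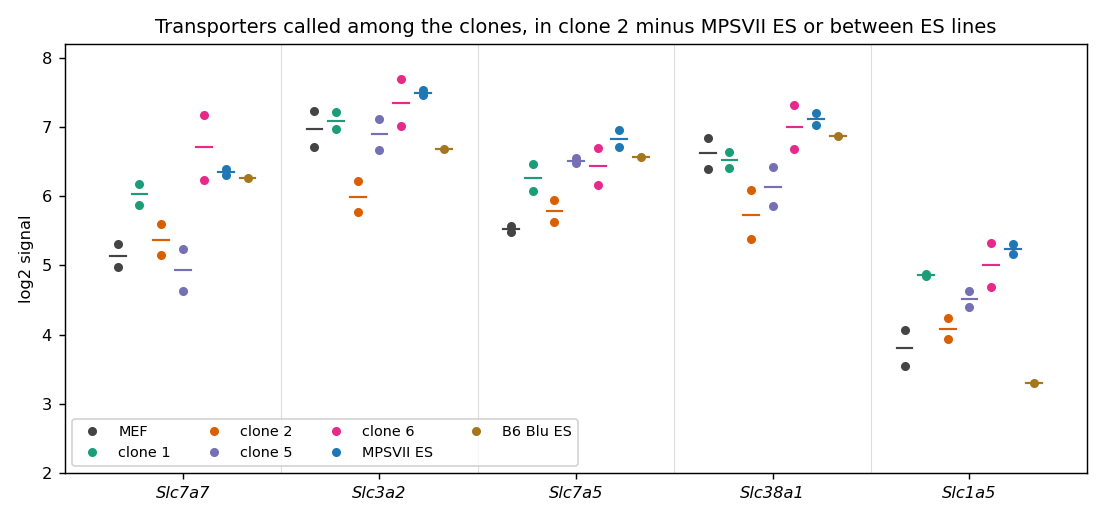
Log2 signal on each array (points) and line means (bars) for Slc7a7, Slc3a2, Slc7a5, Slc38a1 and Slc1a5. Clone 2 is the lowest line for Slc3a2 and Slc38a1, clone 6 the highest and MEF and clone 5 the lowest for Slc7a7, and B6 Blu ES the lowest for Slc1a5.

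Genes around amino acid use were followed in 4 further lists. Of 24 matched genes of the amino acid stress response, against MEF the clones had 3 higher and 9 lower, beside 7.78% and 27.0% of all rows, with a median of -0.08 log2 units. Quantile normalization gave 9 and 4, centring 6 and 7 and loess 6 and 6, alternatives chosen for these lists after the data were seen. Calls over all rows under each scaling, which also shifted, are given with the transporter counts above. Lower were Vldlr (-2.43 ± 0.30, adjusted p = 7.37e-05), a lipoprotein receptor, and the stress transcription factors Atf3 (-1.71 ± 0.20, 5.17e-05) and Ddit3 (-1.42 ± 0.19, 0.000145). Asparagine synthetase, Asns, was higher by 1.41 ± 0.30 (0.0034). MPSVII ES gave 4 higher and 6 lower (6.70% and 20.0% of all rows), and B6 Blu ES 1 and 7 (3.30% and 18.0%), and under quantile normalization 10 and 3, and 6 and 4.

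Of 23 genes of amino acid metabolism 8 were higher and 5 lower in the clones, beside 7.78% and 27.0% of all rows, with a median of 0.22. The other scalings gave 10 to 12 higher and 3 to 5 lower. Cdo1, which breaks down cysteine toward taurine, was lower by 3.26 ± 0.21 (adjusted p = 7.07e-07), beside the lower taurine transporter Slc6a6. Ornithine aminotransferase, Oat, was lower by 1.91 ± 0.19 (1.33e-05). The branched-chain aminotransferase Bcat1 was higher by 1.55 ± 0.22 (0.000201). MPSVII ES gave 9 higher and 3 lower (6.70% and 20.0% of all rows) and B6 Blu ES 1 and 2 (3.30% and 18.0%). Under quantile normalization these became 12 and 1, and 8 and 2. Over all 16661 rows that scaling called 2418 higher and 2503 lower in MPSVII ES, and 1846 and 2015 in B6 Blu ES. Against MPSVII ES, Cdo1 was lower in the clones by 1.96 ± 0.21 (0.00378), the 1 call of that list, beside 1.04% of all rows.

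Of 25 genes by which mTORC1 senses amino acids, 1 was higher and 10 lower in the clones (median -0.24), 1 and 7 in MPSVII ES, and 0 and 6 in B6 Blu ES, where 27.0%, 20.0% and 18.0% of all rows were lower and 7.78%, 6.70% and 3.30% higher. Under the other scalings the clones gave 2 to 3 higher and 5 to 9 lower, with medians from -0.0029 to 0.08. Rragc and Rragd, the small GTPases that bring mTORC1 to the lysosome, were lower by 2.45 ± 0.20 (adjusted p = 3.01e-06) and 1.47 ± 0.30 (0.00246), and the arginine sensor family gene Castor2 by 1.79 ± 0.30 (0.000669). Of 21 amino acid carriers of other families, 1 was higher and 6 lower in the clones (median -0.02), 2 and 5 in MPSVII ES, and 0 and 4 in B6 Blu ES. The other scalings gave 4 to 5 higher and 5 lower in the clones. The lower ones were led by lysosomal exporters: Slc17a5, which exports sialic acid, by 2.01 ± 0.16 (3.01e-06), the cystine exporter Ctns by 2.00 ± 0.26 (0.000124), and the peptide and histidine carrier Slc15a3 by 1.83 ± 0.17 (1.1e-05). The macrophage markers fell with these genes, whose part was not tested. Against MPSVII ES the clones had 1, 1, 0 and 0 genes called in the 4 lists, all lower. Of all rows 1.04% were called in that comparison and 0.720% called lower. The call in the stress list was Stc2, a secreted stress-response glycoprotein, at -1.20 ± 0.19 (0.0221).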

How the data were processed

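RNA of 13 samples was amplified, biotin-labelled and hybridised, per the labels' protocols. The deposited log2 values come from RMA in Affymetrix Expression Console, per the submitters' processing notes, with no versions given. Of 23238 rows, 6577 control rows were left out, and 16661 were tested. The 55 members matched RefSeq genes of GRCm38.p6, with 0 symbols changed. With limma 3.58.1 in R 4.3.3, a model with 7 line means was fitted over the 13 arrays (lmFit, eBayes without trend), with 6 residual and 4.53 prior degrees of freedom. The number of arrays limits the precision, and the median residual SD was 0.252 log2 units. A call is a Benjamini-Hochberg adjusted p under 0.05 over all 16661 rows. The model was also run on simulated data with independent noise on each array. Such data cannot show how deviations shared between arrays bear on the calls. Named were up to 10 called members each way per comparison, the 5 of lowest p among called members for single clones, 4 members per role group, both heavy chains and 3 genes per pathway list. Asns and Stc2 were named outside that rule after their values were seen. Members and lists were chosen with earlier results of these data known. Alternatives were a replicate block, leaving out each array or clone 2, 3 other scalings, a filter on dim rows, other variance models, and other sets of rows or arrays.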

Additional observations from a re-analysis of the deposited data

Results flagged for a closer look

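Between groups that share a contrast, 3 transporters differed in the deposited values by a test of the difference itself. Slc7a7 spanned 1.77 log2 units among the clone means (adjusted p = 0.0231, limma's F test). Slc3a2 spanned 1.36 (adjusted p = 0.0451). Slc1a5 was 1.93 log2 units higher in MPSVII ES than on the single B6 Blu ES array (adjusted p = 0.0436).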

How the results depend on the processing

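The count of called transporters in the clones minus MEF was 14, and 22 with median centring, 7 with clone means as samples and 7 with a minimum difference of 1 log2 unit. With clone means as samples MPSVII ES minus MEF gave 3 instead of 12 and B6 Blu ES minus MEF 4 instead of 9. The clones minus MPSVII ES gave 2 after quantile normalization and 1 after loess instead of 0. MPSVII ES minus B6 Blu ES gave 0 instead of 1 with the replicate block, with all rows of the table, with the compared lines alone and with clone means. Among the clones the 2 calls became 1 with the replicate block, the trended prior or array weights, 0 without clone 2, with all rows or with the compared lines alone, 6 after quantile normalization, 5 after centring or loess and 4 with dim rows left out. In single clones dim rows left out gave 11 transporters instead of 18. Leaving out each array in turn gave 11 to 14, 8 to 12, 6 to 9, 0 to 0, 0 to 1, 0 to 2 and 15 to 22 in these 7 comparisons. Under quantile normalization Slc38a10 in the clones minus MEF turned to 0.0351, and in clone 2 minus MEF Slc38a1 turned to 0.20, Slc3a2 to 0.15 and Slc6a8 to 0.0111. Causes were not tested. Same-numbered arrays did not all deviate in the same direction (15 pairs, r from -0.24 to 0.24, 4 over 0.1). Pairs among clone 1, clone 6 and MPSVII ES, and among clone 2, clone 5 and MEF, correlated positively. Pairs across these sets correlated negatively. From replicate 1 to replicate 2 the interquartile range over all rows rose in the first set and fell in the second. The replicate block, with 13, 12, 8, 0, 0, 1 and 16 calls, thus rests on a shared number alone. The row of lowest mean was not run, since each gene has 1 row. With the filter on dim rows (highest line mean under 5), 14 of the 55 transporters stayed in, so differences of the other 41 rest on low signal. Slc36a4, Slc7a8, Slc7a2, Slc43a1 and Slc38a3, called in the clones minus MEF, are among these 41.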
